A study of Rattus norvegicus with 102 samples.

Results

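A group of neuropeptide precursor genes, named for the principal cells of the hippocampus, was followed through CA1, CA3 and the dentate gyrus (DG) of young and aged rats. Members were the 8 genes Penk, Pdyn, Tac1, Crh, Adcyap1, Scg2, Chgb and Vgf, matched by symbol in 3 deposited tables. A row was found for 7 of the 8, out of 26284 genes listed in the Illumina table, whereas Vgf had no row under that symbol in the tables used here. The animals were 34 male Fischer 344 rats with no transgene or drug treatment stated. They comprised 10 young rats of 5 to 6 months (title suffix Y), 12 aged unimpaired rats (OG) and 12 aged impaired rats (OB), both of the latter between 17 and 22 months. Aged rats had been split by their water maze performance, and each rat contributed 1 dissected piece, and hence 1 library per table, for each subfield. Reads assigned to genes, as recovered from the deposited values, ran from 3.25 to 42.8 M per Illumina library and from 4.47 to 21.4 M per Ion Proton library. In whole pieces of tissue, fewer cells of a type and less RNA per cell cannot be told apart, and which cells held the RNA was not measured. For Tac1 in DG the values went against the name of the group, since they moved with interneuron markers (r = 0.742) and against granule cell markers (r = -0.658).

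Peptide precursors are made in the secretory pathway, packed with granins into dense-core vesicles, cut there by prohormone convertases and released on strong activity. Penk and Pdyn give rise to the opioid peptides enkephalin and dynorphin, and dynorphin is a classical peptide of the mossy fibres of granule cells. Tac1 encodes substance P and neurokinin A, Crh encodes corticotropin-releasing hormone and Adcyap1 encodes PACAP. Scg2 (secretogranin II, the precursor of secretoneurin) and Chgb (chromogranin B) are granins, and Vgf is a related precursor that responds to neurotrophins. In the hippocampus Tac1, Crh and Penk are also known from GABA interneurons.

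Subfield labels were set against markers of CA1, CA3 and DG before the members were compared. By these markers 15 libraries lay nearer, in both poly-A tables, to a subfield other than their own label, namely 10 CA3 pieces, 4 DG pieces and 1 CA1 piece. They came from 12 rats, 11 of the 16 rats numbered from 9000 up and 1 of the 18 numbered below 9000. Of the CA3 pieces 7 lay nearest to CA1 and 3 to DG. Of the DG pieces 3 lay nearest to CA1 and 1 to CA3, and the CA1 piece lay nearest to DG. In R9869 the CA1 piece lay nearest to DG and the DG piece to CA1. In R9781 the CA3 piece lay nearest to DG and the DG piece to CA3. Whether such pieces were exchanged was not tested, and within-rat counts include them. Subfield differences of the members are given over all libraries first, and those that differed between the rat number series are given within each series further on. Gene lists were compared over all libraries only. The study's methods describe rats of a pair of colonies, characterised at a pair of sites, and the numbers of young and aged rats per site equal those per number series. The labels do not tie a rat to a site, so the series are named here by rat number.

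Promoter sequence from RefSeq (build GRCr8, not the rn5 build of the counts), 250 bases before to 50 bases after the gene start, was used for 6 of the 8 members, and that of Penk and Crh was not analysed here. The cAMP response element TGACGTCA, which binds CREB, was searched together with its part TGACG on both strands. TGACGTCA is its own reverse complement and holds TGACG on each strand, so that the motifs overlap. The whole element was present in the Scg2 promoter, starting 123 bases before the gene start, and in the Vgf promoter, starting 90 bases before it. Of 33469 promoters of this length 1.83% held TGACGTCA and 21.2% held TGACG in either direction. Tac1 held the short part once, read on the opposite strand (CGTCA), 206 bases before the start, and Pdyn, Chgb and Adcyap1 held neither. The sequences of Scg2, Chgb and Pdyn, which were all higher in DG than in CA1, and of Tac1, which was lower in DG, are printed 5′ to 3′ with these letters in capitals.
Scg2 (chr9:88256817-88257116, minus strand): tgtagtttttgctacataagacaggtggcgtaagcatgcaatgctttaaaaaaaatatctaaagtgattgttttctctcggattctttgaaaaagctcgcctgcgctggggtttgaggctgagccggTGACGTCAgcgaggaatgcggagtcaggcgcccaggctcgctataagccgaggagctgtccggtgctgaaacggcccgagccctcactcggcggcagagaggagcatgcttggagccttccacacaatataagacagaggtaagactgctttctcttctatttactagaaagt
Chgb (chr3:140496462-140496761, plus strand): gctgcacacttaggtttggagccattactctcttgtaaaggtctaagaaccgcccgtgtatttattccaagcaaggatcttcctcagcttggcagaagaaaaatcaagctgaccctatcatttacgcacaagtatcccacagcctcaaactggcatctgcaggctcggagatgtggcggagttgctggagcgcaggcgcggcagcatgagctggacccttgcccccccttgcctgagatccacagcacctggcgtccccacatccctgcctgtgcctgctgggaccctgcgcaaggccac
Pdyn (chr3:137366454-137366753, minus strand): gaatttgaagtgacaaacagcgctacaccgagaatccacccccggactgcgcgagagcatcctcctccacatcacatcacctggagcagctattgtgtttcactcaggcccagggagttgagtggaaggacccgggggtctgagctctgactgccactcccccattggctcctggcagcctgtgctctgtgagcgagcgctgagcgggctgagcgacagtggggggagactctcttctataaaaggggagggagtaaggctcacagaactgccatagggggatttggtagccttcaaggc
Tac1 (chr4:36645333-36645632, plus strand): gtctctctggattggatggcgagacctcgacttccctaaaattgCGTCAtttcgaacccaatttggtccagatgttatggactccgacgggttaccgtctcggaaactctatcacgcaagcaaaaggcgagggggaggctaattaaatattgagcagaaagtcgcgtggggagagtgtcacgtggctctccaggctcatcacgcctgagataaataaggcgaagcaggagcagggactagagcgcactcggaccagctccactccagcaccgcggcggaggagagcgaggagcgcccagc
A match of letters is a description of the window and not a binding site.

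The 7 measured members separated the subfields (limma on log2(value + 1), called at adj-p below 0.05 with 1 direction in the Illumina and the Ion Proton table). Between CA1 and CA3 4 of 7 members were called, against 14.4% of all genes tested in both tables. For CA1 against DG it was 5 of 7 against 26.9%, and for CA3 against DG 6 of 7 against 28.5%. Pdyn, Penk, Scg2 and Chgb were highest in DG, Tac1 was lowest in DG, and Adcyap1 was lower in CA3 than in either other subfield. Crh was not called in any of the 3 comparisons. These shares describe 7 chosen genes and are not a test of the group.

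**Figure D1:**
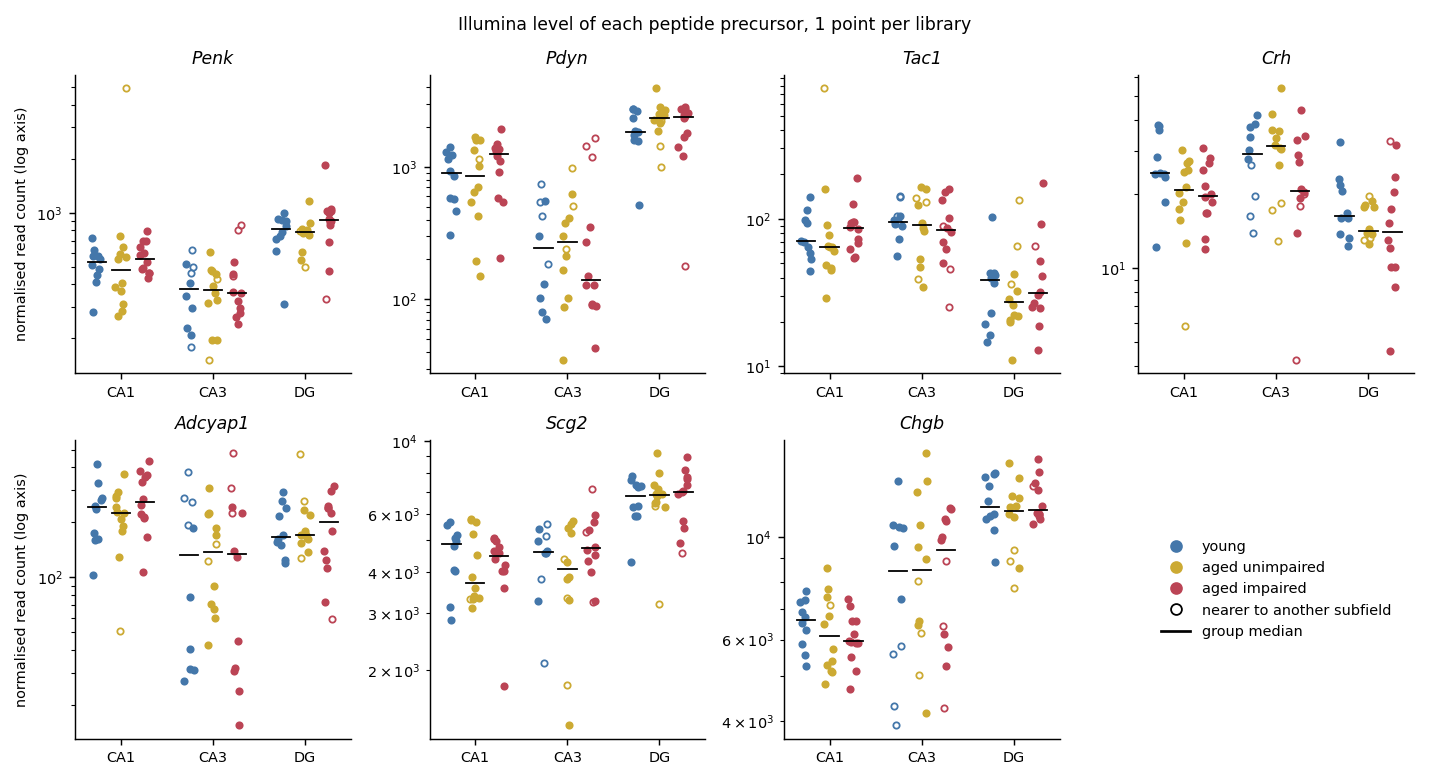
Normalised read count (log axis) of the 7 measured precursors in every Illumina library, by subfield (CA1, CA3, DG) and group (young, aged unimpaired, aged impaired), with black bars at group medians and open circles for the 15 libraries nearer to another subfield. DG exceeds CA1 in 29 (Pdyn), 31 (Scg2) and 34 (Chgb) of 34 rats, the 3 groups overlap in every subfield, and 1 open circle in CA1 stands far above the rest for Penk and Tac1.

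Pdyn (ENSRNOG00000026036, chromosome 3), the dynorphin precursor, had the largest subfield difference among the members. In DG its normalised read count ran from 180 to 3944 with a median of 2299.8 (mean 2115 ± 741, SD, n = 34). CA1 ranged from 151 to 1938 with a median of 1069 (978 ± 479). CA3 ranged from 34.9 to 1660.2 with a median of 226 (377 ± 403). The ranges overlapped, but within a rat DG exceeded CA3 in 32 of 34 animals and CA1 in 29 of 34. The log2 difference of CA3 against DG was -3.02 (95% interval -3.54 to -2.50, limma adj-p = 7.35e-18), rank 8 by absolute size among 14179 genes. CA1 stood 1.20 below DG on the log2 scale (log2 difference -1.20, -1.72 to -0.69, limma adj-p = 5.43e-05) and 1.82 above CA3 (1.30 to 2.34, limma adj-p = 1.21e-08).

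Pdyn moved with the markers of dentate granule cells, which were themselves present in the CA1 and CA3 pieces. Mean Pdyn in CA1 was 46.2% of its mean in DG, and the same share was 47.0% for Prox1, the granule cell transcription factor, 47.0% for Dsp, 42.4% for C1ql2 and 40.4% for Plk5. In CA3 the share was 17.8% for Pdyn, 27.5% for Prox1, 19.9% for Dsp, 16.9% for C1ql2 and 14.1% for Plk5. Calb1, a further marker on the list and one that CA1 pyramidal cells also express, was at 103% of its DG mean in CA1, while Lct and Tdo2 averaged 0.202 to 3.60 reads and were thus scarcely read in any subfield. The summed level of the 7 DG markers was 939.5 to 4557 reads in CA1 pieces, 587 to 5507 in CA3 pieces and 945 to 8241 in DG pieces. Over the 34 rats Pdyn followed this sum in CA1 (Pearson r = 0.963, Spearman rho = 0.937), in CA3 (r = 0.959, rho = 0.954) and in DG (r = 0.963, rho = 0.889). Each had a permutation p of 1e-05, the smallest that 100000 resamples can give, with adjusted values of 1.31e-04 (r) and 1.5e-04 (rho) over 105 pairs of a member and a marker list. Without the 2 rats farthest from the median of the sum r was 0.942, 0.959 and 0.903, and in the Ion Proton table it was 0.941, 0.915 and 0.896. Among rats below 9000 r was 0.962 (CA1), 0.911 (CA3) and 0.780 (DG), and from 9000 up 0.953, 0.963 and 0.982. Both measures come from the same libraries, and the part of granule cell material in the CA1 and CA3 values was not tested. Without the 15 libraries nearer to another subfield Pdyn in CA3 had a mean of 204 ± 162 (n = 24), 9.14% of DG, while Prox1 was at 16.3%, Dsp at 10.5%, C1ql2 at 9.07% and Plk5 at 6.89% of DG there.

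**Figure D2:**
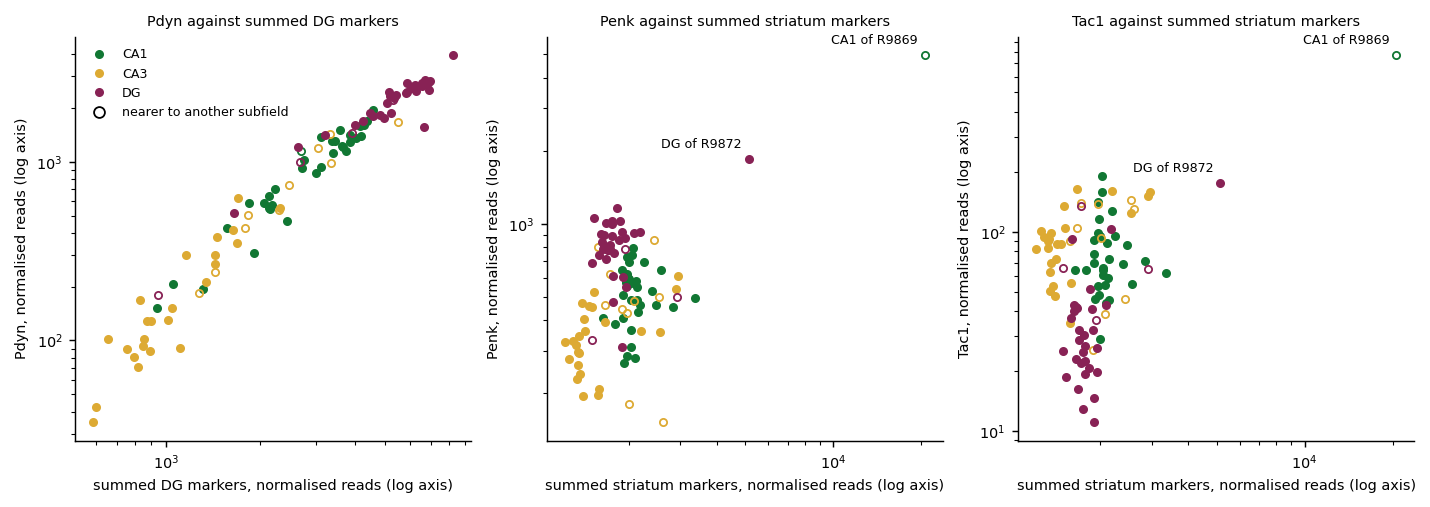
Normalised reads per Illumina library on log axes for Pdyn against the summed DG markers and for Penk and Tac1 against the summed striatum markers, coloured by subfield, with open circles for libraries nearer to another subfield. Pdyn follows the DG marker sum along 1 line through all 3 subfields, and the CA1 library of R9869 and the DG library of R9872 lead the striatum sums at 20610 and 5149 reads.

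Penk (ENSRNOG00000008943, chromosome 5), the enkephalin precursor, was called in all 3 comparisons. Its level in DG ran from 309.9 to 1856 with a median of 813 (823 ± 269, SD, n = 34). In CA3 it ran from 152 to 857 with a median of 360.4 (393 ± 165). In CA1 it ran from 268 to 4959.8 with a median of 541 (652 ± 773). Thus DG was highest by median, and the ranges of all subfields overlapped. The log2 difference of CA3 against DG was -1.11 (-1.39 to -0.83, limma adj-p = 1.43e-10), and DG exceeded CA3 in 32 of 34 rats. CA1 differed from DG by -0.54 (-0.82 to -0.26, limma adj-p = 8.55e-04) and from CA3 by 0.57 (0.28 to 0.85, limma adj-p = 8.53e-04). Under edgeR and DESeq2 Penk was not called for CA1 against DG, although its sign was kept. Penk also moved with the summed DG markers in CA1 (Pearson r = 0.438, Spearman rho = 0.748, permutation test, adjusted p = 0.0362 and 1.5e-04). In CA3 the values were r = 0.618 and rho = 0.668 (adjusted 0.00105 and 3.5e-04), and in DG r = 0.257 (adjusted 0.213). In the Ion Proton table r was 0.354 in CA1 and 0.470 in CA3. The part of granule cell material in the Penk values was not tested.

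A single CA1 library set the spread of Penk. The CA1 piece of R9869, an aged unimpaired rat, held 4959.8 Penk reads, 9.35 times the median of the other 33 CA1 libraries, whose highest value was 794. The same library held 769 Tac1 reads against 29.0 to 189.8 in the others. Its Drd2 was 1163 against 21.9 to 86.0 and its Adora2a 1633 against 32.1 to 131, both receptors of striatal projection neurons. All 9 striatum markers were above every other CA1 library, Isl1 included, which was at 0 in the median library. Crh (5.82) and Adcyap1 (50.9) were by contrast below all the others. The DG piece of R9872, an aged impaired rat, ranked 2 by its striatum marker sum (5149 against a median of 1895 over all libraries). It ranked 2 by Penk (1856 reads) and 3 by Tac1 (176 reads). Not all striatum markers led there, as Foxp1 was above 26 and Isl1 above 32 of the other 33 DG libraries.

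Both libraries also led the striatum sum in the Ion Proton and the WT table. Their part in the results was not tested beyond leaving them out, an alternative chosen after their values were seen. Without them the counts stayed at 4, 5 and 6 members called, for which the share of all genes is not given here. In this setting Penk in CA1 differed by 0.47 from CA3 and by -0.60 from DG, and in CA3 by -1.07 from DG. Without the 15 libraries nearer to another subfield, which include that of R9869, mean Penk in CA1 was 521 ± 138 (n = 33).

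Tac1 (ENSRNOG00000007374, chromosome 4), the substance P precursor, was the one member called lower in DG than in both CA1 and CA3. DG ran from 11.1 to 176 with a median of 31.3 (42.3 ± 35.6, SD, n = 34). CA1 ran from 29.0 to 769 with a median of 70.5 (101 ± 123), and CA3 from 25.5 to 164 with a median of 90.7 (94.4 ± 39.2). The ranges overlapped between all subfields. The log2 difference from DG was 1.21 for CA1 (0.83 to 1.59, limma adj-p = 6.96e-08) and 1.32 for CA3 (0.94 to 1.69, limma adj-p = 5.42e-09), and CA1 exceeded DG in 29 and CA3 in 31 of 34 rats. CA1 and CA3 differed by -0.11 with an interval from -0.48 to 0.27 (limma adj-p = 0.702). In DG Tac1 moved with the summed interneuron markers over 34 rats (Pearson r = 0.742, Spearman rho = 0.691, permutation p = 1e-05 and 2e-05, adjusted 1.31e-04 and 2.62e-04 over 105 pairs). Without the 2 rats farthest from the median of the sum r was 0.676, in the Ion Proton table it was 0.744, and within the series it was 0.690 and 0.812. In CA1 this relation had r = 0.381 (rho = 0.631, permutation p = 0.028 and 9e-05, adjusted 0.0593 and 6.75e-04), and in CA3 r = 0.326 (rho = 0.112, permutation p = 0.0581 and 0.525, adjusted 0.111 and 0.707). Tac1 in DG also ran against the summed DG markers (r = -0.658, rho = -0.733, permutation p = 6e-05 and 1e-05, adjusted 5.73e-04 and 1.5e-04), with -0.708 without the 2 farthest rats, -0.668 in the Ion Proton table and -0.840 and -0.716 within the series. The summed interneuron markers had a range of 4533 to 11389 in DG, 5364 to 10656 in CA1 and 5303 to 10078 in CA3. Of these 10 interneuron markers 6 were called higher in CA3 than in DG (14.1% of all genes were) and 4 higher in CA1 than in DG (13.4% of all genes), and their part in the Tac1 result was not tested.

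Crh (ENSRNOG00000012703, chromosome 2), the stress hormone precursor, rested on few reads. CA1 libraries lay between 5.82 and 38.0 (22.4 ± 7.45, SD, n = 34), CA3 libraries between 4.25 and 53.9 (27.7 ± 10.7) and DG libraries between 4.59 and 32.8 (16.8 ± 6.37), with medians of 22.5, 28.3 and 15.6. The median library held 20.5, 26 and 13 Crh reads. CA3 stood above DG in the Illumina table (log2 difference 0.65, 0.38 to 0.92, limma adj-p = 2.62e-05), but the Ion Proton difference was 0.30 with limma adj-p = 0.379. For CA1 against DG the 2 tables had opposite signs, 0.40 and -0.14. Crh was called for CA3 against DG by edgeR (0.73) and DESeq2 (0.75). Without the 15 libraries it was called higher in CA3 than in DG (0.96) and lower in CA1 than in CA3 (-0.48). Crh moved with the summed interneuron markers in CA1 (Pearson r = 0.400, Spearman rho = 0.415, permutation test, adjusted p = 0.0475 and 0.0414). Within the series r was 0.031 and 0.220 there. In CA3 r was 0.602 (adjusted 0.0068) but rho was 0.353 (adjusted 0.0931). Without the libraries nearer to another subfield r was 0.099 in CA3, and in DG it was 0.022 over all rats. As a description with no test, its levels in the 2 poly-A tables correlated over 34 rats at r = 0.181 in CA1, 0.617 in CA3 and 0.278 in DG, against 0.956 to 0.981 for Pdyn over the subfields.

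Adcyap1 (ENSRNOG00000049882, chromosome 9), the PACAP precursor, was lowest in CA3. CA3 ran from 15.5 to 476 with a median of 134 (149.9 ± 116, SD, n = 34), while CA1 ran from 50.9 to 431 with a median of 241 (245 ± 90.9) and DG from 59.2 to 476 with a median of 171 (194 ± 80.0). CA3 thus spread the widest, over both low and high values. CA1 exceeded CA3 by 1.10 (0.67 to 1.54, limma adj-p = 2.56e-05), and CA3 was below DG by a log2 difference of -0.77 (-1.20 to -0.33, limma adj-p = 1.89e-03). CA1 and DG differed by 0.33 with an interval from -0.10 to 0.77 (limma adj-p = 0.194). Under edgeR and DESeq2 the CA3 to DG difference of Adcyap1 was -0.39 and -0.37 and was not called.

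The granins Scg2 (ENSRNOG00000015055, chromosome 9) and Chgb (ENSRNOG00000021269, chromosome 3) were both highest in DG. Scg2 ran from 3188 to 9182 in DG (6729 ± 1259.8, SD, n = 34), from 1789.5 to 5803 in CA1 (4322 ± 971) and from 1362 to 7168 in CA3 (4422 ± 1241), with medians of 6919, 4430 and 4561. It was lower than in DG by the same amount in CA1 (-0.65, -0.84 to -0.46, limma adj-p = 9.41e-09) and CA3 (-0.65, -0.84 to -0.46, limma adj-p = 8.38e-09), each in 31 of 34 rats. The Scg2 difference between CA1 and CA3 was -0.0022 with an interval from -0.19 to 0.19. Chgb ran from 7769 to 14730.4 in DG (11652 ± 1698), from 4686 to 8573 in CA1 (6279 ± 946) and from 3917 to 15176 in CA3 (8511 ± 3038). DG exceeded CA1 for Chgb in 34 of 34 rats, with a log2 difference of -0.89 for CA1 against DG (-1.06 to -0.72, limma adj-p = 2.08e-15). Chgb in CA3 lay between, at -0.53 against DG (-0.71 to -0.36, limma adj-p = 1.31e-07), with CA1 at -0.36 against CA3 (-0.53 to -0.19, limma adj-p = 5.32e-04).

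**Figure D3:**
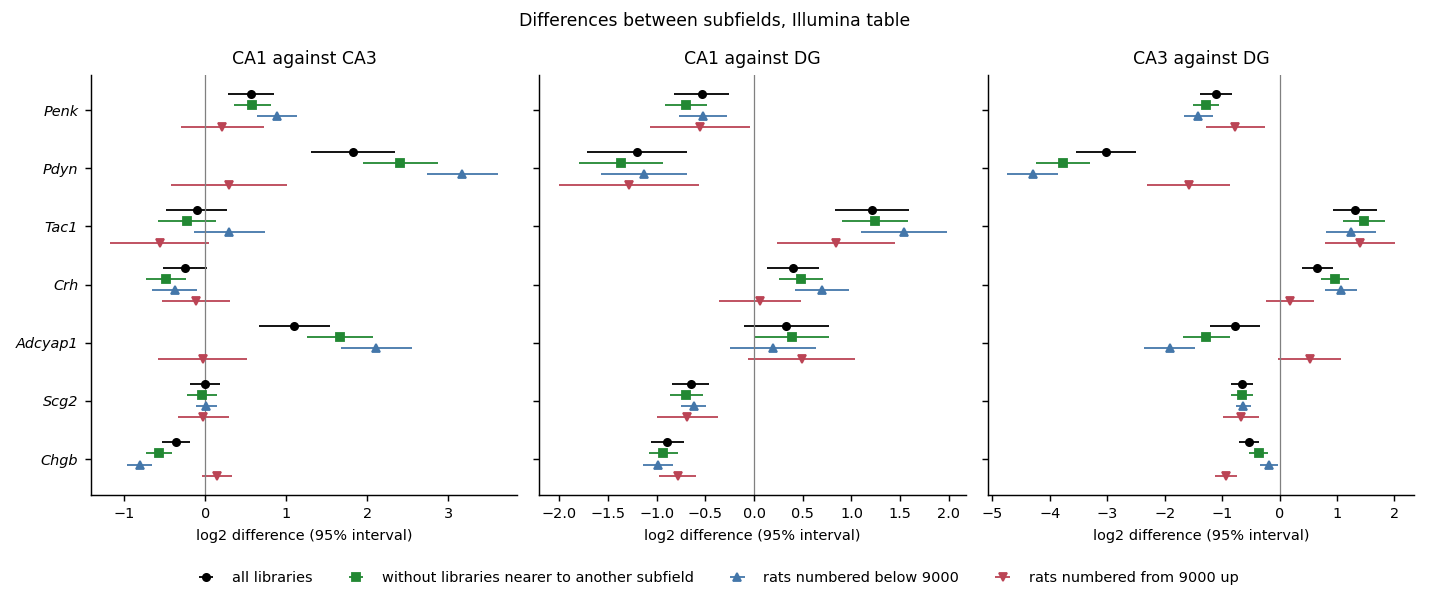
Log2 difference of each precursor between subfields in the Illumina table with 95% intervals, over all libraries (circles), without the 15 libraries nearer to another subfield (squares) and within the rats numbered below 9000 (upward triangles) or from 9000 up (downward triangles). The Scg2 estimates of all 4 settings lie close together, while Pdyn, Adcyap1 and Chgb in comparisons with CA3 lie apart between the number series.

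Differences that involved CA3 were not the same in both rat number series. For Pdyn CA1 exceeded CA3 by 3.17 in the 18 rats numbered below 9000 and by 0.30 in the 16 numbered from 9000 up. For Adcyap1 the values were 2.11 and -0.03, for Chgb -0.81 and 0.15, for Penk 0.88 and 0.21 and for Tac1 0.30 and -0.56. Within-rat differences were compared between the series by a two-sided permutation test with 100000 resamples. Of 21 gene and subfield pairs 11 had a Benjamini-Hochberg adjusted p under 0.05, a share that was not computed for all genes. The largest was Pdyn, CA1 minus CA3, with a gap of -2.88 between the series (permutation p = 1e-05, the smallest these resamples can give, adjusted 5.25e-05). Adcyap1, CA3 minus DG, was -1.91 in the lower series and 0.52 in the upper (permutation p = 5e-05, adjusted 1.75e-04). For CA3 minus DG the lower and the upper series also differed for Pdyn (-4.30 and -1.58), Chgb (-0.18 and -0.93), Penk (-1.41 and -0.77) and Crh (1.08 and 0.18). None of the Scg2 pairs passed, and neither did any CA1 to DG pair other than that of Crh (0.70 and 0.06, adjusted p = 0.0305, permutation test).

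The share of all genes called also differed between the series. Among rats numbered below 9000 5 members were called for each comparison, against 21.8% of all genes between CA1 and CA3, 15.7% between CA1 and DG and 23.4% between CA3 and DG. Among those from 9000 up 0 members were called for CA1 against CA3 (3.95% of all genes), 3 when CA1 was set against DG (20.9%) and 4 when CA3 was (22.0%). Without the 15 libraries 5 members were called between CA1 and CA3 (21.1% of all genes), 5 between CA1 and DG (28.6%) and 7 between CA3 and DG (30.0%). Chgb, Pdyn and Scg2 were called lower in CA1 than in DG and lower in CA3 than in DG within each series. Adcyap1 in CA3 had medians of 52.1 and 224 in the lower and the upper series, against 255 and 209.7 in CA1. Of the 15 libraries nearer to another subfield 14 belonged to the upper series, and after their removal the upper series kept 5 rats with both a CA1 and a CA3 library. In those 5 the mean Pdyn difference of CA1 minus CA3 was 0.46 ± 1.65 (SD) and that of Adcyap1 0.68 ± 0.81.

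**Figure D4:**
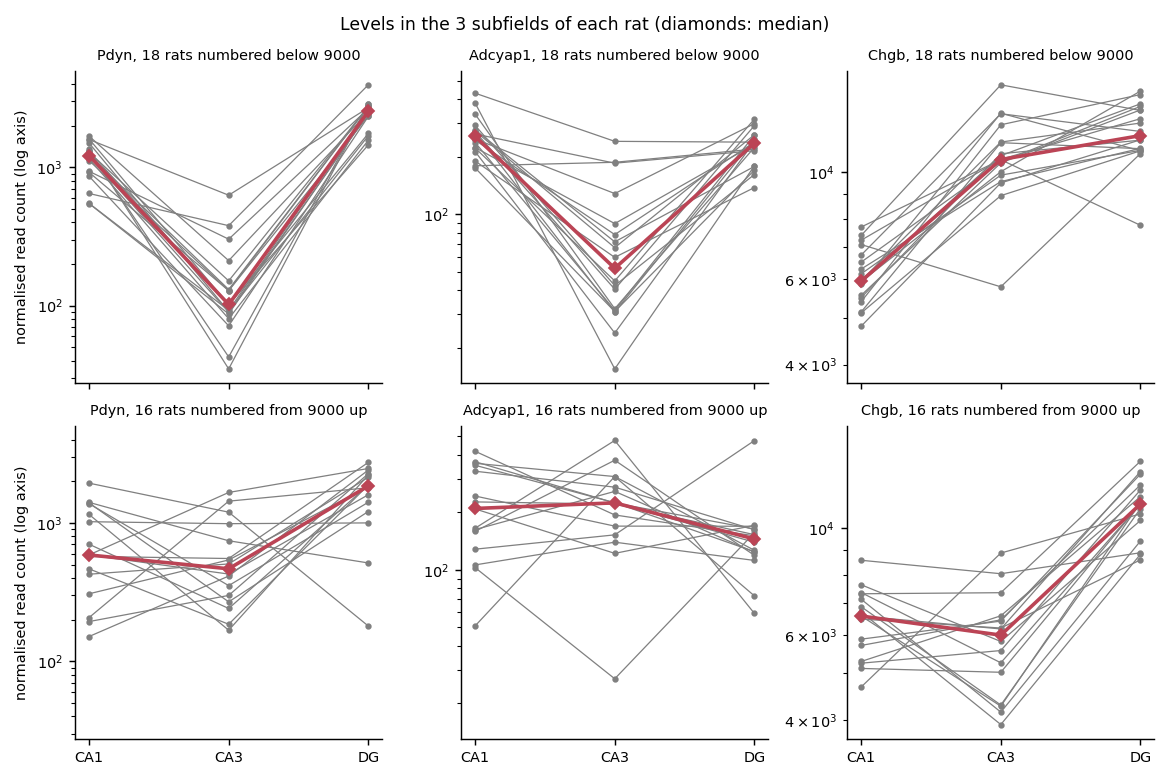
Normalised read count (log axis) of Pdyn, Adcyap1 and Chgb in CA1, CA3 and DG, with 1 grey line per rat, the 18 rats numbered below 9000 in the upper row and the 16 from 9000 up in the lower row, and red diamonds at the medians. In the lower number series Pdyn and Adcyap1 dip in CA3, Adcyap1 to a median of 52.1, and in the upper series the CA3 medians are 466 for Pdyn and 224 for Adcyap1.

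No member was called for age or cognition in any subfield. A call needed an unadjusted limma p below 0.01 in the Illumina table and a one-sided p below 0.05, equal in direction, in the Ion Proton table. Of all genes tested 0.851% met this for aged against young in CA1, 0.402% in CA3 and 1.09% in DG. For impaired against unimpaired rats the shares were 0.635%, 0.0216% and 0.124% in the same order. Unimpaired against young rats gave 0.671%, 0.287% and 0.663%, and impaired against young rats 0.829%, 0.351% and 0.991%. Over these 12 comparisons 0 of 84 gene and comparison pairs reached even an unadjusted limma p of 0.05 in the Illumina table, which 1.4% to 7.81% of all genes did, and 2 reached it in the Ion Proton table, both for Crh in CA1. edgeR and DESeq2 also called 0 members. The smallest Illumina adj-p was 0.778 (limma).

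**Figure D5:**
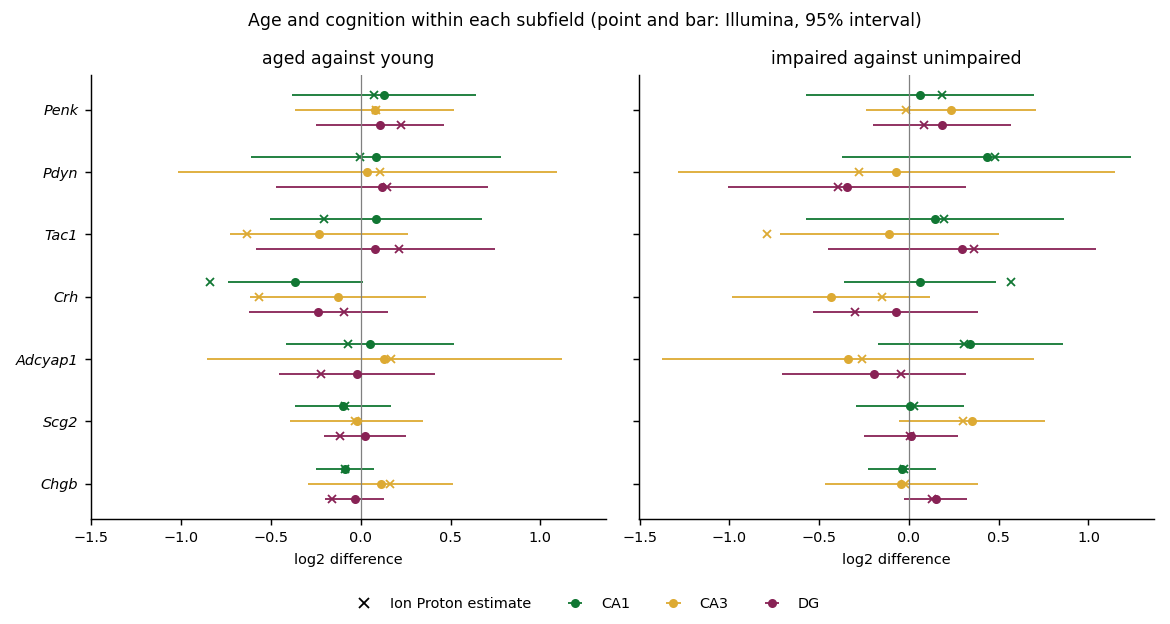
Log2 difference of each precursor for aged against young and for impaired against unimpaired rats in CA1, CA3 and DG, with points and bars for the Illumina estimate and its 95% interval and crosses for the Ion Proton estimate. The widest intervals are those of Pdyn and Adcyap1 in CA3, and all contain 0.

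Crh came nearest. In CA1 its Illumina level ran from 12.2 to 38.0 with a median of 24.3 in young rats, from 5.82 to 30.3 with a median of 20.8 in unimpaired rats and from 12.0 to 30.8 with a median of 19.7 in impaired rats. The groups overlapped, and aged rats differed from young by -0.36 (-0.74 to 0.01, unadjusted limma p = 0.0562, adj-p = 0.833). The Ion Proton estimate was -0.84 (unadjusted limma p = 0.0495), on a median of 13 reads. Scg2 in CA3 had group medians of 4608, 4075 and 4716 in young, unimpaired and impaired rats, and impaired rats differed from unimpaired by 0.35 (-0.06 to 0.76, unadjusted limma p = 0.0892).

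For the other members the data bound the differences rather than show one. Chgb differed between aged and young rats by -0.09 in CA1 (-0.25 to 0.07) and by -0.03 in DG (-0.20 to 0.13). Pdyn in DG had medians of 1852, 2339.6 and 2396 in young, unimpaired and impaired rats, with aged against young at 0.12 (-0.47 to 0.71). Penk in DG had medians of 813, 785 and 915, with an aged difference of 0.11 (-0.25 to 0.46). In CA3 the intervals were wide, as for Pdyn (aged against young 0.04, -1.02 to 1.09) and Adcyap1 (0.13, -0.86 to 1.12), and a change of 1 on the log2 scale lies inside the Pdyn interval in both directions.

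Differences of the age or cognition effect between pairs of subfields were tested for all 7 members, and 0 had a limma adj-p under 0.05 (0.0% of all genes). None had an unadjusted limma p under 0.05 either, which 50 to 740 of 14179 genes had in a given comparison. In the same libraries Gfap, the astrocyte filament, was called higher in aged rats by 0.44 in CA1, 0.45 in CA3 and 0.41 in DG. Its limma adj-p in the Illumina table was 0.105, 0.367 and 0.00209 in that order, so only DG passed 0.05. The study lists Gfap as raised with age in all 3 subfields of the same animals.

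Over all genes 14.4% were called between CA1 and CA3 (7.26% higher and 7.09% lower in CA1), 26.9% between CA1 and DG (13.4% higher and 13.5% lower in CA1) and 28.5% between CA3 and DG (14.1% higher and 14.3% lower in CA3), and the lists that follow are to be read against these shares. In prohormone processing 5 of 10 tested genes were called lower in CA1 than in CA3 and none higher, with a median difference of -0.17 against 0.01 over all genes. They included Pcsk2, a convertase of neuronal vesicles (-0.30), Pcsk5 (-0.25) and Cpe, the carboxypeptidase that trims cut peptides (-0.24). For CA1 against DG 1 was called higher, Pcsk6 (0.39), and 3 lower, including Pcsk2 (-0.30) and Pcsk5 (-0.26). For CA3 against DG Pcsk6 was higher (0.31), and Pam, the amidating enzyme, and Scg5, the chaperone of Pcsk2, were lower (-0.12 and -0.11). Of 14 other granins and dense-core vesicle genes 4 were called between CA1 and CA3, 6 between CA1 and DG and 7 between CA3 and DG, in both directions, with median differences of -0.05, -0.20 and 0.00443. Cadps2, a vesicle priming factor, was higher in CA1 than in DG by 1.56 and in CA3 than in DG by 1.02, and higher in CA1 than in CA3 by 0.54. Its relative Cadps was lower in CA1 than in CA3 (-0.36), Ptprn was lower in CA1 than in CA3 (-0.40) and DG (-0.37), and Ptprn2 was higher in CA1 than in DG (0.62). Baiap3 was higher (0.73) and Syt10 lower (-0.54) in CA3 than in DG.

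Markers of neurons in general and of glia also differed between the pieces. Of 7 tested pan-neuronal markers 5 were called lower and 1 higher in CA1 than in CA3, with a median difference of -0.21, and 3 were lower and 0 higher in CA1 than in DG, with a median of -0.24. Snap25, a synaptic SNARE protein gene, was lower in CA1 than in CA3 by a log2 difference of -0.40 and than in DG by -0.29. Between CA3 and DG 0 of the 7 were called. The summed pan-neuronal level was 53886.5 to 80246 reads in CA1, 60998 to 111538 in CA3 and 73159 to 100161 in DG. Of 11 glia markers 7 were called higher in CA1 than in DG (median 0.28) and 8 higher in CA3 than in DG (median 0.31), while 0 were called between CA1 and CA3. Their sum was 94836 to 299427 reads in CA1 pieces, 83778 to 360492 in CA3 pieces and 68287 to 221998 in DG pieces. The part of neuronal and glial content in the differences of the granins, processing and vesicle genes was not tested.

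Receptors of the member peptides differed between subfields in both directions. Of 13 tested, 5 were called lower in CA1 than in CA3 and none higher, 2 were higher and 3 lower in CA1 than in DG, and 4 were higher and 1 lower in CA3 than in DG. Their median differences were -0.43, -0.02 and 0.10 in that order. The list was thus called in 5 of 13 cases in each comparison, nearest to the share of all genes for CA3 against DG. Tacr3, a tachykinin receptor, was higher in CA3 than in DG by 2.66 and in CA1 than in DG by 1.64, and lower in CA1 than in CA3 (-1.02). Tacr2 ran the other way between CA1 and DG (-1.82) and was lower in CA1 than in CA3 (-1.27). Crhr1, the main Crh receptor, was lower in CA1 than in CA3 (-0.51), while Crhbp, which binds Crh outside cells, was higher in CA1 (0.55) and CA3 (0.60) than in DG. Oprm1, the mu opioid receptor, was higher in CA3 than in DG by 0.62.

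Other precursors on a list of 18, of which 11 could be tested, were called in 4 cases between the CA fields, 5 between CA1 and DG and 4 between CA3 and DG, the last near the share of all genes. Their median differences were 0.21, 0.41 and 0.37. Nts, the neurotensin precursor, was higher in CA1 than in CA3 by 3.15 and than in DG by 3.84. Nmb, the neuromedin B precursor, had the order of Pdyn, with CA1 above CA3 by 0.97 and differences from DG of -1.45 in CA1 and -2.42 in CA3. Grp was higher in CA3 than in DG (0.89) and lower in CA1 than in CA3 (-0.86), Vip was higher in CA1 than in DG (1.17), and Cck was higher in CA3 than in DG (0.85). Among 14 activity-dependent genes, 6 were called higher in CA1 than in CA3 and none lower, 8 higher and 1 lower in CA1 than in DG, and 4 higher and 3 lower in CA3 than in DG, with medians of 0.42, 0.55 and 0.13. Nr4a1 (1.13) and Egr2 (1.10) were higher and Bdnf lower (-1.04) in CA1 than in DG. Nr4a1 (0.74), Arc (0.74) and Egr1 (0.68) were higher in CA1 than in CA3. Bdnf (-1.05) and Fosb (-0.46) were lower and Egr2 higher (0.67) in CA3 than in DG. None of the processing, vesicle, receptor, other precursor or activity genes was called for age or cognition.

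Within a subfield the members varied together only in part. Of 21 pairs in each subfield, 63 in all, 26 had a Pearson correlation with a Benjamini-Hochberg adjusted permutation p under 0.05 over the 34 rats, and 18 passed by Spearman as well. Of these 8 also passed with the same sign in the Ion Proton table, and 1 of the 8, Pdyn with Scg2 in CA1, had an adjusted permutation p under 0.05 in each number series taken alone. The same share over pairs of all genes was not computed, so these counts are not a result about the members as a group. Pdyn and Adcyap1 in CA3 had r = 0.542 over all rats but 0.205 below 9000 and 0.025 from 9000 up (permutation test, adjusted p = 0.512 and 0.947). Penk and Pdyn in CA3 had r = 0.673 over all rats, 0.564 below 9000 and 0.577 from 9000 up (permutation test, adjusted p = 0.0511 and 0.0695). Pdyn and Crh in CA3 changed sign between the series, with r = -0.516 over all rats, 0.254 below 9000 and -0.432 from 9000 up. Pdyn and Scg2 were correlated in CA1 (r = 0.786, rho = 0.775) and in DG (r = 0.758, rho = 0.768), with permutation p of 1e-05 and 4e-05 for r and 1e-05 for both rho, and adjusted values of 6.3e-04 for r and 2.1e-04 for rho. Without the 2 rats farthest from the Pdyn median r was 0.815 and 0.831, and within the series it was 0.792 and 0.704 in CA1 (permutation test, adjusted p = 0.00525 and 0.029) and 0.632 and 0.704 in DG (adjusted p = 0.0328 and 0.0551). In CA3, where Pdyn and Scg2 had r = 0.048 (rho = -0.014, permutation p = 0.79 and 0.941, adjusted 0.83 and 0.993), no relation was detected over all rats. Within the series, which differ in their CA3 level of Pdyn, r was 0.333 below 9000 (permutation p = 0.177, adjusted 0.319) and 0.711 from 9000 up (permutation p = 0.00184, adjusted 0.029). Scg2 followed the summed DG markers in CA1 (r = 0.865, rho = 0.875) and DG (r = 0.785, rho = 0.661) but not detectably over all rats in CA3 (r = 0.062, permutation p = 0.731, adjusted 0.825). Within the series, where it was not tested, r was 0.359 below 9000 and 0.648 from 9000 up in CA3, near the 0.348 and 0.759 of DG, and 0.869 and 0.800 in CA1.

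In DG Tac1 ran against Pdyn (r = -0.557, rho = -0.627, permutation p = 0.00118 and 6e-05, adjusted 0.0106 and 5.4e-04). It also ran against Chgb there (r = -0.547, rho = -0.56, permutation p = 8.3e-04 and 6.7e-04, adjusted 0.00882 and 0.00422). Without the 2 rats farthest from the median of the first gene r was -0.601 and -0.497, and within the series, below 9000 and from 9000 up, it was -0.566 and -0.627 for Pdyn (permutation test, adjusted p = 0.0519 and 0.0692) and -0.719 and -0.307 for Chgb (adjusted p = 0.00945 and 0.452), so that 1 of these 4 passed. Adcyap1 and Chgb were opposed in CA3 (r = -0.700, rho = -0.729, permutation p = 2e-05 for each, adjusted 6.3e-04 and 2.52e-04, r = -0.682 without the 2 farthest rats). Within the series, which differ in the CA3 level of both genes, the relation did not pass, with r = -0.480 below 9000 (permutation p = 0.041, adjusted 0.0994) and -0.232 from 9000 up (permutation p = 0.402, adjusted 0.603). Without the 10 CA3 libraries nearer to another subfield r was -0.647. Over all rats Adcyap1 ran against the summed CA3 markers in CA3 (r = -0.569, permutation test, adjusted p = 0.00197) and Chgb ran with them (r = 0.699, adjusted 1.31e-04). Below 9000 and from 9000 up these were 0.005 and -0.243 for Adcyap1 and -0.385 and 0.371 for Chgb. The part of subfield content in the relation of the genes was not tested. Penk and Tac1 in CA1 had r = 0.668 (rho = 0.27, permutation p = 0.00347 and 0.121, adjusted 0.0142 and 0.223), but without the 2 rats farthest from the Penk median, R9869 among them, r was 0.141, so the relation rested on those samples.

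The genes most like each member over all Illumina libraries were read off by Pearson r among 13907 genes, as a description over libraries of all 3 subfields. Pdyn was nearest to Lnp1 (0.965), Ccdc85a (0.960) and C1ql2 (0.957), with 0.910, 0.914 and 0.891 in the Ion Proton table. Scg2 was nearest to Rtn4rl1 (0.912), Wnt4 (0.908) and Clip4 (0.894), which were at 0.574, 0.729 and 0.762 in the Ion Proton table. Chgb was nearest to Cst6 (0.928), Napg (0.921) and LOC502894 (0.917), at 0.741, 0.4656 and 0.534 there. Adcyap1 was nearest to Cntn4 (0.843), Grb10 (0.814) and Tmem132a (0.806), at 0.741, 0.671 and 0.376 there. Penk was nearest to Gnal (0.817), Pde1b (0.812) and Rgs9 (0.809), of which Rgs9 was on the striatum list, at 0.363, 0.766 and 0.727 there. Tac1 was nearest to Arhgap18 (0.836), Drd2 (0.821) and Htr2c (0.819), of which Drd2 was on that list, at 0.542, 0.576 and 0.591 there. Crh was nearest to Auh (0.704), Khdrbs3 (0.680) and its binding protein gene Crhbp (0.677), and in the Ion Proton table these were 0.067, 0.301 and 0.512.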

How the data were processed

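RNA of CA1, CA3 and DG of 34 rats was measured, 1 library per piece and table. The authors divided counts by a DESeq2 size factor per library, so the deposited values are a normalised signal and each table was normalised separately. Illumina reads were trimmed with cutadapt (1.8.3), aligned to rn5 with STAR (2.5) and counted with featureCounts (1.4.4), versions per the submitters' processing notes. Ion Proton reads were aligned with TopHat2 and Bowtie2. The library type and aligner of the third table, named WT, are not given in the sources used here, and it served as an alternative. The sources name different TruSeq kits, so use of strand in counting is not known and reads of overlapping or antisense genes cannot be told apart. Whole reads were recovered for 100.0% of values above 0 (tolerance 0.1% of 1 read). No column was without a sample.

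Genes with a mean of at least 10 were tested on log2(value + 1) by limma (3.58.1, under R 4.3.3) with a trended variance, a scale that understates the change of low genes. A single fit per table covered the subfields, and a call needed a Benjamini-Hochberg adjusted p under 0.05 and equal sign in the Illumina and the Ion Proton fits. Age and cognition were called within a subfield at p under 0.01 in the Illumina table and one-sided p under 0.05 in the Ion Proton table. Intervals are 95% limma intervals. Correlations had 100000 permutations. Alternatives were edgeR (4.0.16) and DESeq2 (1.42.0) on recovered reads, a pseudocount of 0.1, no filter, quantile normalisation, the WT table, rat number series and subsets of libraries. Rats were grouped by title and are separate animals. The rat number pairs the subfields of 1 animal. Deviations from group means correlated between CA1 and DG of a rat at a median r of 0.19 (over 0.1 in 26 of 34 rats), between CA1 and CA3 at 0.087 and between CA3 and DG at -0.032. The fits were checked on simulated counts.

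Named genes were all members, the 3 genes nearest each member, and up to 3 called genes per list and subfield comparison plus any called for age or cognition. Members and lists were chosen with earlier results of these data known.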

Additional observations from a re-analysis of the deposited data

Results flagged for a closer look

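Among 21 groups of 10 young rats (7 members in 3 subfields, Illumina table), 3 held a library that stood farther from its nearest neighbour than Dixon's 95% limit for 10 samples allows, and chance flags about 1 group in 20. Groups of 12 were not tested. In DG the highest young Crh value was 32.6 (R2221), against 23.0 for the next library and 12.3 for the lowest. The other two flags fell on the DG library of R9881, whose Pdyn of 514 lay far below the next value of 1566 and whose Tac1 of 103 lay far above the next value of 42.9. The summed DG markers of that library ranked 2 from the lowest among the 34 DG libraries in each of the 3 tables, at 1655 reads in the Illumina table, and their part in these values was not tested.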

How the results depend on the processing

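Counts of members called between subfields stayed at 4, 5 and 6 with the rat as a replicate block in the paired fit, which changed no call. The share of all genes called in that fit is not given here. Among rats numbered from 9000 up, 0 members were called for CA1 against CA3 and 3 for CA1 against DG. Of 209 recomputed counts 198 stayed within 1.5 times the main count, those of age and cognition at 0 in every setting. Reversed log2 differences between CA1 and CA3 were those of Tac1 under edgeR (0.058), DESeq2 (0.0858) and rats numbered below 9000 (0.30), of Scg2 under quantile normalisation (0.0465), without the 7 deep rats (0.0312), in rats below 9000 (0.0147) and without the CA1 library of R9869 and the DG library of R9872 (0.0084), and, from 9000 up, of Adcyap1 (-0.0329) and Chgb (0.15). Adcyap1 for CA3 against DG also reversed from 9000 up (0.52). Within subfields Tac1 (aged, CA3) reversed without the libraries nearer to another subfield (0.0705), Crh (aged, DG) in rats from 9000 up (0.0129) and in the WT table (0.16), Crh (impaired against young) in the WT table in CA3 (0.17) and from 9000 up in DG (0.14), Scg2 (unimpaired against young, CA3) below 9000 (0.12) and Chgb (the same, DG) without the libraries nearer to another subfield (0.00115). None of these was called under the setting that reversed it, whereas Adcyap1 and Chgb for CA1 against CA3 and Adcyap1 for CA3 against DG were called over all rats. The cause was not tested.

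Correlated pairs numbered 9, 9 and 8 in CA1, CA3 and DG. In CA1 there were 2 in the Ion Proton table, 7 in rats below 9000, 5 in rats from 9000 up, 5 without the libraries nearer to another subfield and 4 without the 2 farthest rats. In CA3 6 passed in the Ion Proton table (5 of them over all rats too), 7 without the libraries nearer to another subfield (4 of them) and 7 without the 2 farthest rats (6 of them). Below 9000 4 passed in CA3, of which 1 had passed over all rats, and from 9000 up 2, of which 0 had. In DG 3 passed in the Ion Proton table, 7 without the libraries nearer to another subfield and 6 without the 2 farthest rats. There 4 passed below 9000 (2 of them over all rats too) and 1 from 9000 up. In the series 18 and 16 rats enter in place of 34. Crh had a median of only 11 to 15 reads per Ion Proton library, which limits its precision.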
